A study of Mus musculus with 4 samples.

Results

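The transcription factors described here are 9 of the 26611 genes counted in mature splenic natural killer (NK) cells. They were chosen by name as factors of NK cell commitment and late maturation and read from the table of gene counts by Entrez number. They are the T-box factors Eomes and Tbx21, the zinc-finger factors Zeb1 and Zeb2, Prdm1, Irf8, Id2, Nfil3 and Ikzf2. RNA was sequenced from 4 mice of the C57BL/6 background, 2 carrying a Tcf7 knock-out (KO) and 2 wild type (WT), with 1 library from each mouse. Splenic cells were sorted as TCRbeta-negative and positive for NK1.1, NKp46, CD11b and KLRG1, so late-stage NK cells were measured in both genotypes. The labels used here name neither the knock-out allele nor the age of the mice. The question was which of these factors differ in mature NK cells with the Tcf7 knock-out.

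NK cells are innate lymphocytes that kill infected or transformed cells with granule proteins. Their identity and ripening are set by a small network of transcription factors: Nfil3 and Id2 act at commitment, Eomes and T-bet (encoded by Tbx21) hold NK cell identity, and T-bet, Zeb2 and Blimp-1 (encoded by Prdm1) drive the last steps, in which CD27 is lost and CD11b and KLRG1 are gained. Tcf7 encodes Tcf-1, an HMG-box DNA-binding factor of the Wnt pathway that is high in precursors and immature NK cells and declines as they ripen.

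The libraries held 28254693 and 37384979 counts in KO and 31860505 and 40175537 counts in WT. The targeted gene, Tcf7, stood at 11.2 and 25.05 CPM (counts per 1000000 counted reads, scaled with TMM factors) in KO libraries 1 and 2, against 89.5 and 79.1 CPM in WT libraries 1 and 2 (log2 fold change -2.22, edgeR unadjusted p = 0.00607, adjusted p = 1.00, DESeq2 adjusted p = 0.00216). The NK cell markers were abundant in all 4 libraries. Ncr1, which encodes the sorted protein NKp46, stood at 1510 to 1611 CPM in KO and 1557 to 1732 CPM in WT. Of 10 T cell markers, 8 were at 5.42 CPM or less in all libraries. The other two were receptor chain segments: Trac stood at 94.0 and 36.1 CPM in KO, against 5.88 and 8.30 CPM in WT (DESeq2 adjusted p = 7.04e-06), and Trbc2 at 120 and 65.0 CPM in KO, against 121 and 96.9 CPM in WT. The 5 erythroid markers matched summed to 194 and 121 CPM in KO, against 35.7 and 27.6 CPM in WT. The edgeR quasi-likelihood test called 0 of 12723 tested genes between the genotypes at a Benjamini-Hochberg adjusted p under 0.05, with 361 at an unadjusted p under 0.05. DESeq2 called 71 and limma voom 0.

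None of the 9 factors passed the test between KO and WT cells. All 9 had enough counts to be tested, 0 had an edgeR unadjusted p under 0.05, where 2.84% of all tested genes did (1.70% higher and 1.14% lower in KO), and 0 were called by DESeq2, where 0.558% were. Of the log2 fold changes, 7 were below 0 and 2 above, with a median of -0.20, against -0.01 over all tested genes, of which 51.8% were below 0. That median turned to 0.10 without KO library 1 and to 0.05 without WT library 2. It was -0.15 with a gene length trend removed from each library, an alternative described below. In bulk RNA, fewer cells of a type and less RNA per cell cannot be told apart.

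The order of the factors was nearly the same in every library. Levels between genes are compared per length, in TPM (counts per base of deposited gene length, scaled to 1000000 in each library). Id2, an inhibitor of E-protein transcription factors, was the most abundant, at 1568 and 1901 TPM in KO and 1916 and 2139 TPM in WT. Tbx21 (603 to 958 TPM over the 4 libraries) and Irf8 (459 to 815 TPM) came next and overlapped each other. Eomes followed alone, at 169 to 269 TPM. Nfil3 (43.8 to 65.8 TPM), Prdm1 (26.7 to 63.9 TPM) and Zeb2 (18.4 to 57.9 TPM) overlapped, and only this trio held a change of order: Zeb2 stood above Prdm1 in KO library 2 and below it in the other 3 libraries. Zeb1 (5.29 to 13.2 TPM) and Ikzf2 (0.526 to 1.29 TPM) were the lowest.

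**Figure D1:**
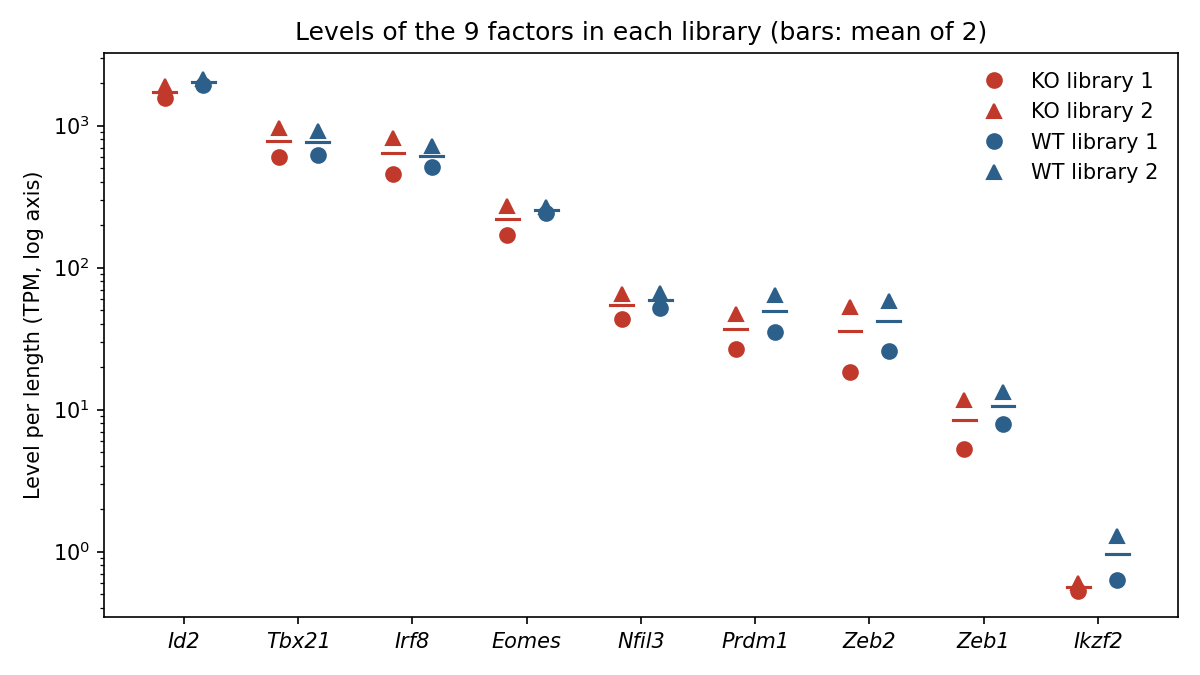
Level of each factor per length (TPM, log axis) in the 2 KO libraries (left of each pair) and the 2 WT libraries (right), with a bar at the mean of 2. Id2 lies at 1568 TPM or more in every library and Ikzf2 below 1.30 TPM, and the KO and WT points overlap for all factors but Id2 and Ikzf2.

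Eomes (chromosome 9, 118478186 to 118486132 in mm10), the T-box factor that separates conventional NK cells from type 1 innate lymphoid cells (ILC1), stood at 354 and 508 CPM in KO, against 488 and 500 CPM in WT. KO library 1 was low and the other 3 libraries lay close together, so the genotypes overlapped. The mean was 431 ± 110 CPM in KO and 494 ± 8.55 CPM in WT (SD, n = 2 each). In edgeR its log2 fold change came to -0.20, with a standard error (SE) of 0.25 and a 95% interval of 0.545-fold to 1.39-fold (edgeR adjusted p = 1.00).

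Tbx21 (chromosome 11, 97098007 to 97115331), which lies 44.8 Mb from Tcf7 on the same chromosome, stood at 868 and 1243 CPM in KO, against 869 and 1172 CPM in WT. The lower library of each genotype had nearly the same value and the higher ones lay close together as well. Its log2 fold change was 0.05 (SE 0.29), with an interval of 0.603-fold to 1.77-fold (edgeR adjusted p = 1.00). Within a library, Tbx21 stood at 3.58 and 3.56 times the TPM of Eomes in KO, against 2.59 and 3.41 times in WT. This ratio, chosen after its values were seen, was higher in both KO libraries than in both WT libraries, and 2 libraries a group allow no exact permutation p under 0.333.

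The start regions of the factors are shown because Tcf-1, the protein encoded by the targeted gene, binds DNA. Sequence outside these regions was not searched. RefSeq windows of GRCm38.p6 (the assembly of mm10), 250 bases before to 50 after an annotated start, were held for 7 of the 9 factors, with 11 windows; Zeb1 and Ikzf2 had none. The letters searched, on both strands, were CTTTGA and CTTTGT for Tcf/Lef factors, AGGTGT for T-box factors and CAGGTG for ZEB factors, and the last 2 share AGGTG. A Tcf/Lef match was in 1 of the 11 windows, against 31.2% of 32851 windows of all genes. A ZEB match was in 3 of 11, against 20.2%, and a T-box match in 0 of 11, against 13.7%. Several of the 11 windows are starts of Zeb2, and some of these overlap. Counted by gene, a Tcf/Lef match was in 1 of 7 factors, against 9325 of 27025 genes. A ZEB match was in 3 of 7, against 6098 genes, and a T-box match in 0 of 7, against 4244 genes. A match is a description of letters and not a binding site. The windows of Eomes (chr9:118477939-118478238, plus strand), Tbx21 (chr11:97115282-97115581, minus strand) and the 1 Zeb2 start with a Tcf/Lef match (chr2:45110228-45110527, minus strand) are given 5′ to 3′ with matches in capitals. Positions count from the start as 1, with -1 just before it, and name the first letter of the match as printed.
Eomes: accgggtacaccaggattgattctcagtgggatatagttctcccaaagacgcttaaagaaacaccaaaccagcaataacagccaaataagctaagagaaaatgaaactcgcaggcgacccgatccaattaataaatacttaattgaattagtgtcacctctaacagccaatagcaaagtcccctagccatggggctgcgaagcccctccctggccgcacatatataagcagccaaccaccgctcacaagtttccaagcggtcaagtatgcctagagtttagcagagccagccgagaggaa
Tbx21: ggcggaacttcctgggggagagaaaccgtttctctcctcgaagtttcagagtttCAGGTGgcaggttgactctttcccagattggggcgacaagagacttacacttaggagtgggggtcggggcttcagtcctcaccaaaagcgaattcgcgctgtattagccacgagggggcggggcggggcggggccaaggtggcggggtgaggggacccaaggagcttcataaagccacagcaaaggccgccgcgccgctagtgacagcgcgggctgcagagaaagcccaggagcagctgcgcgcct
Zeb2: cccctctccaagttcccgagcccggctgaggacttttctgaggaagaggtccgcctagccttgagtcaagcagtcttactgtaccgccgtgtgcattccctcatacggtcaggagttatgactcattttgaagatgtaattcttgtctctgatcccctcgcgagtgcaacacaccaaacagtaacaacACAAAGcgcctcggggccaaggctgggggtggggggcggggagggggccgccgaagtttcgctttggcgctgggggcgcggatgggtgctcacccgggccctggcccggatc
Eomes has no match to any of these letters, Tbx21 has CAGGTG at -196, and Zeb2 has CTTTGT, read on the opposite strand, at -62. The other ZEB matches were at -87 for Prdm1 and at -205 for the downstream start of Irf8. The Prdm1 window (chr10:44458699-44458998, minus strand) is also at a downstream start, inside the gene (44437174 to 44528558). No window was held for the upstream end of Prdm1. The printed Zeb2 start lies downstream of other Zeb2 starts.

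Zeb2 (chromosome 2, 44983512 to 45117442), a zinc-finger repressor that acts downstream of T-bet in terminal NK cell maturation in mice, varied most within a genotype among these factors. It stood at 94.7 and 243 CPM in KO libraries 1 and 2, against 128 and 267 CPM in WT libraries 1 and 2. The second library was 2.57 times the first in KO and 2.08 times in WT, while the log2 fold change between genotypes was -0.22 (SE 0.60), with an interval of 0.285-fold to 2.57-fold (edgeR adjusted p = 1.00). The antisense transcript Zeb2os overlaps it. Zeb2os held 281 and 253 counts in KO and 360 and 268 in WT, against 2778 and 8774 counts of Zeb2 in KO and 4174 and 10468 in WT. The sources used here do not say whether counting used the strand, so reads of both may be mixed.

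Zeb1, the paralogue that in mouse T cells is tied to memory where Zeb2 is tied to effector fate, stood at 17.3 and 34.4 CPM in KO, against 25.3 and 38.9 CPM in WT. The genotypes overlapped and the second library was again the higher one in each. Its log2 fold change was -0.31 (SE 0.44, edgeR adjusted p = 1.00). The TPM of Zeb2 was 3.48 and 4.504 times that of Zeb1 in KO, against 3.24 and 4.37 times in WT, so the 2 genes differed between libraries in the same sense and their ratio moved less than either gene.

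Prdm1 (chromosome 10, 44437174 to 44528558) encodes Blimp-1, a repressor needed for full NK cell maturation in mice. It stood at 77.4 and 124 CPM in KO, against 98.7 and 166 CPM in WT. Each KO library lay below the WT library of its own number, but the ranges of Prdm1 overlapped. The same order by number held for Zeb1, Zeb2, Id2, Nfil3 and Ikzf2, and the labels state no pairing by number. Plasma cells also express Prdm1, and the 9 B and plasma cell markers summed to 116 and 20.7 CPM in KO, against 47.3 and 23.4 CPM in WT. Jchain held much of that sum, at 89.9 and 10.9 CPM in KO, against 27.8 and 9.55 CPM in WT, and its part in the Prdm1 values was not tested. The log2 fold change came to -0.40 (SE 0.38), with an interval of 0.374-fold to 1.54-fold (edgeR adjusted p = 1.00).

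Irf8 (chromosome 8, 120736358 to 120756694), an interferon regulatory factor that mouse NK cells need for their adaptive response to cytomegalovirus and that dendritic cells need for their development, stood at 732 and 1172 CPM in KO, against 794 and 1019 CPM in WT. The genotypes overlapped, with KO holding both the lowest and the highest library. The log2 fold change came to 0.07 (SE 0.32), with an interval of 0.585-fold to 1.88-fold (edgeR adjusted p = 1.00). Dendritic and other myeloid cells also express Irf8 and Zeb2, and the 16 myeloid and dendritic markers summed to 565 and 78.7 CPM in KO libraries 1 and 2, against 139 and 18.2 CPM in WT libraries 1 and 2. All 13 of those tested had a log2 fold change above 0. In each genotype the first library had the higher marker sum and, for these as for all 9 factors, the lower level; the part of myeloid cells in the Irf8 and Zeb2 values was not tested. The dendritic cell genes Xcr1, Clec9a, Siglech, Batf3, Flt3 and Cd209a were at 0 to 2.83 CPM in KO and 0 to 0.985 CPM in WT, with Cd209a the highest. In KO library 1 the highest of the 16 markers were Lyz2, S100a9 and S100a8. Lyz2 stood at 258 and 18.6 CPM in KO, against 92.7 and 3.31 CPM in WT. S100a9 stood at 122 and 22.3 CPM in KO, against 10.5 and 0.535 CPM in WT, and S100a8 at 118 and 22.4 CPM in KO, against 9.94 and 0.687 CPM in WT.

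Id2 (chromosome 12, 25093799 to 25096092) stood at 1125 and 1229 CPM in KO, against 1330 and 1375 CPM in WT. Neither KO library reached the level of a WT library, with a mean of 1177 ± 73.6 CPM in KO and 1353 ± 31.8 CPM in WT (SD, n = 2 each). Its log2 fold change of -0.20 (SE 0.19) did not pass (edgeR adjusted p = 1.00), and its interval, 0.609-fold to 1.24-fold, was the narrowest of the 9. Such a lack of overlap with KO lower was seen for 2 of the 9 factors, Id2 and Ikzf2, and for 11.6% of all tested genes.

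Nfil3 (chromosome 13, 52967209 to 52982878), a basic leucine zipper factor that starts NK cell commitment in mice, stood at 49.2 and 66.2 CPM in KO, against 56.5 and 66.2 CPM in WT. The higher libraries of the genotypes had the same value to 3 digits. The log2 fold change came to -0.09 (SE 0.25), with an interval of 0.590-fold to 1.50-fold (edgeR adjusted p = 1.00).

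Ikzf2 encodes Helios, an Ikaros-family factor known from regulatory T cells. It was counted 82 and 104 times in KO, against 105 and 242 times in WT, which is 2.80 and 2.88 CPM in KO and 3.23 and 6.16 CPM in WT. WT library 2 stood apart and the other 3 libraries lay close together. The log2 fold change came to -0.73 (SE 0.44), the largest in size and the smallest p of the 9 (edgeR unadjusted p = 0.163, adjusted p = 1.00), and it was -0.17 without WT library 2. The 10 T cell markers summed to 224 and 107 CPM in KO, against 138 and 111 CPM in WT. Most of each sum was Trac and Trbc2, with the values given above, and their part in the Ikzf2 values was not tested.

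**Figure D2:**
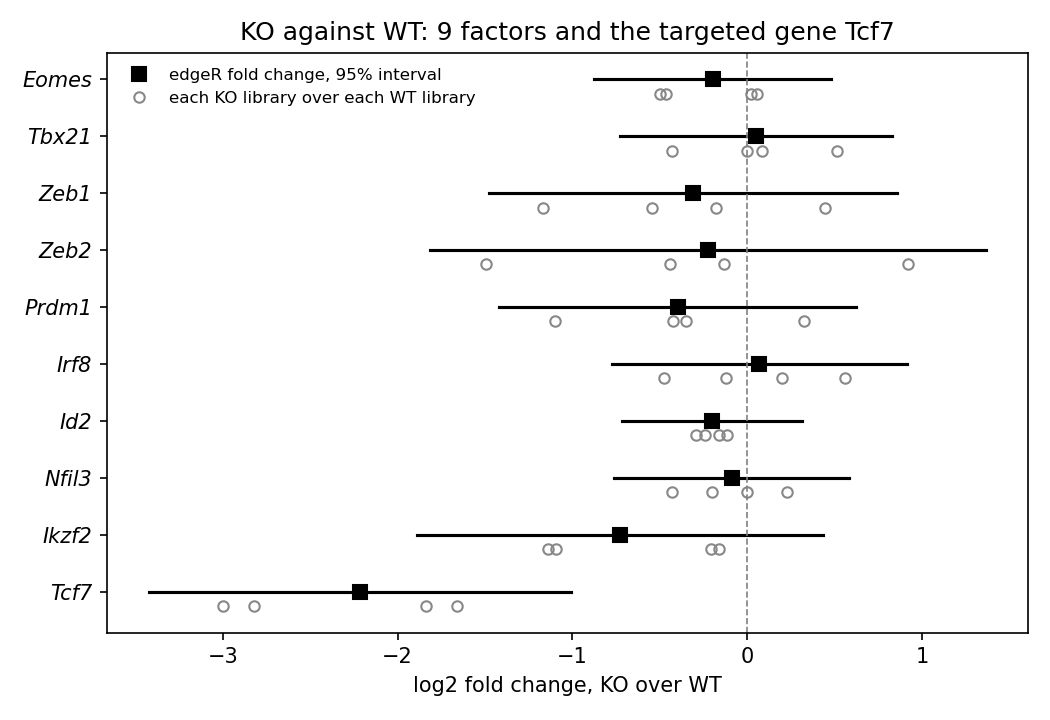
Log2 fold change of KO over WT for the 9 factors and Tcf7 (squares, edgeR, with 95% intervals) and the ratio of each KO library to each WT library (open circles). The intervals of all 9 factors span 0, whereas that of Tcf7 runs from -3.42 to -1.01.

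For 6 of the 9 factors, the log2 fold change between genotypes was smaller in size than the difference between the 2 libraries in KO and in WT. The exceptions were Eomes, Id2 and Ikzf2. All 9 were higher in the second library than in the first in both KO and WT, which 40.1% of all tested genes also were. For 3 of them, Zeb1, Zeb2 and Prdm1, the second library was at least 1.5 times the first in both genotypes, against 14.2% of tested genes. The median ratio over the factors was 0.52 on the log2 scale in KO and 0.43 in WT, against -0.01 and 0.01 over all tested genes. The labels do not say what libraries of the same number share, and the second library also had more counts in each genotype.

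This difference between libraries followed gene length over the whole table. Among genes with a deposited length over 5 kb the median log2 ratio of the second to the first library was 0.76 in KO and 0.54 in WT, and among those under 2 kb it was -0.37 in KO and -0.24 in WT. Across 12723 genes, which are not independent replicates, Spearman's rho between that ratio and length was 0.51 in KO and 0.49 in WT. The log2 fold change of KO over WT also fell with length, more weakly (rho -0.176). Its median was 0.055 among genes under 2 kb and -0.063 among those over 5 kb. The genes Zeb1, Zeb2, Prdm1 and Ikzf2 are in the longest class. Zeb2, of 9113 bases, had a ratio above that of 74.0% of its class in KO and 74.7% in WT, and Prdm1 above that of 46.3% in KO and 61.5% in WT. Ikzf2 was above 17.7% of that class in KO and 69.0% in WT, and Zeb1 above 60.8% in KO and 54.4% in WT. Nfil3, of 1992 bases, had a ratio above that of 90.9% of the shortest class in KO and 86.4% in WT, and Id2 above 82.7% in KO and 77.2% in WT. Nfil3 lies just under the upper edge of its class and Prdm1, of 5143 bases, just over the lower edge of its own. Length still varies within a class, so these shares do not separate a factor from the length trend.

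A length trend was removed from each library in an alternative chosen after the data were seen, and again 0 of the 9 passed. The SE was then smaller for Eomes, Tbx21, Zeb1, Zeb2, Prdm1 and Irf8. It was larger for Id2 (0.23, against 0.19 without that step). For Nfil3 and for Ikzf2, the longest of the factors, it was slightly larger. Zeb2 then had a log2 fold change of -0.12 (SE 0.20) and a 95% interval of -0.63 to 0.39, against -1.81 to 1.36 without that step. Ikzf2 had -0.41 (SE 0.45, against 0.44 without that step) and Tbx21 0.08 (SE 0.26). Tbx21 and Irf8, of middle length, had library ratios above those of 71.6% to 80.4% of their class in either genotype, and Eomes above those of 74.3% in KO and 46.4% in WT.

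**Figure D3:**
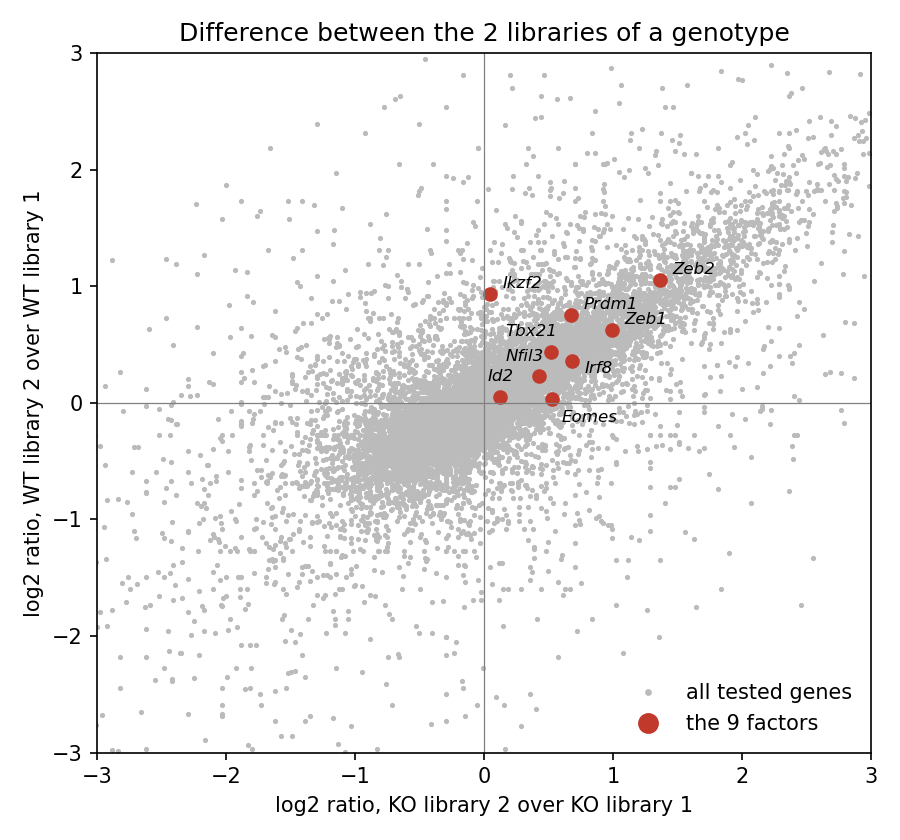
Log2 ratio of the second to the first library in KO (x axis) and in WT (y axis) for the tested genes (grey) and the 9 factors (red), with axes limited to 3 on the log2 scale. All 9 factors lie in the upper right part, with Zeb2 farthest out at 1.36 in KO and 1.05 in WT.

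The genes around these factors were read from lists of the same fit. Of 20 upstream signals and factors, such as the interleukin 15 receptor chains, Jak and Stat genes, Ets1, Runx3 and Foxo1, 0 passed and 0 had an unadjusted p under 0.05 in edgeR or passed in DESeq2. Of these, 16 were below 0, with a median of -0.15. Stat5b, a signal transducer of interleukin 15, stood at 104 and 137 CPM in KO, against 143 and 171 CPM in WT, and Ets1, which acts early in NK cell development, at 1107 and 1119 CPM in KO, against 1178 and 1559 CPM in WT. These 2 of the 20 had both KO libraries under both WT libraries, near the 11.6% of all tested genes. Ikzf1 (log2 fold change -0.21, SE 0.26) and Jak1 (-0.29, SE 0.39) overlapped between genotypes.

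Among 11 late-stage genes, which ripening NK cells gain under T-bet, Zeb2 and related factors, 0 passed in edgeR or DESeq2, 0 had an unadjusted p under 0.05 in edgeR and the median was -0.06. Of the 11, 4 had both KO libraries above both WT libraries, against 9.64% of all tested genes, and 1 had them below, against 11.6%. Of all 11, 6 were below 0. The gene with KO below was S1pr5, a sphingosine phosphate receptor that lets NK cells leave tissues and depends on T-bet and Zeb2 in mice, at 721 and 878 CPM in KO, against 919 and 979 CPM in WT (log2 fold change -0.25, SE 0.21, edgeR unadjusted p = 0.301). Cx3cr1, a chemokine receptor, stood at 551 and 758 CPM in KO, against 235 and 471 CPM in WT (log2 fold change 0.89, SE 0.41, edgeR unadjusted p = 0.0900). Gzmb, a granzyme, stood at 2799 and 2688 CPM in KO, against 2116 and 1842 CPM in WT. Klrg1, whose protein was part of the sort, stood at 1410 and 915 CPM in KO, against 817 and 740 CPM in WT, and Ifng, the interferon gamma gene, at 66.5 and 63.1 CPM in KO, against 60.9 and 44.5 CPM in WT. Monocytes also express Cx3cr1, and the monocyte marker Csf1r stood at 24.1 and 6.46 CPM in KO, against 14.0 and 7.64 CPM in WT; its part in the Cx3cr1 values was not tested.

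Early-stage genes, which are high before maturation, held the lower values around these factors. Of 14 tested, 4 had an unadjusted p under 0.05, all lower in KO, against 1.14% of tested genes, and 0 passed in edgeR after adjustment. Tcf7 itself is 1 of the 4. The others were Il7r, the interleukin 7 receptor gene (0.648 and 1.08 CPM in KO, 9.38 and 5.80 CPM in WT), Kit, the stem cell factor receptor gene (5.11 and 7.21 CPM in KO, 50.3 and 21.9 CPM in WT), and Ltb, the lymphotoxin beta gene (15.6 and 7.07 CPM in KO, 33.6 and 22.8 CPM in WT). DESeq2 called Il7r, Kit and Tcf7 but not Ltb. Of the 14, 7 had both KO libraries below both WT libraries, against the 11.6% given above. Tcf7, the targeted gene, is also 1 of these 7, and the list was chosen with earlier results of these data known.

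Genes tied to ILC1, the Eomes-negative relatives of NK cells, were low in both genotypes. The 7 that were matched summed to 48.9 and 46.5 CPM in KO and 42.7 and 60.2 CPM in WT, 0 passed and 0 had an unadjusted p under 0.05 in edgeR or passed in DESeq2. Rora, a nuclear receptor gene, stood at 0.648 and 1.69 CPM in KO, against 2.34 and 5.65 CPM in WT (edgeR unadjusted p = 0.0637). Itga1, which encodes CD49a, stood at 9.002 and 16.3 CPM in KO, against 4.58 and 14.1 CPM in WT, and overlapped.

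Of 35 family relatives and E proteins, 19 had enough counts to be tested, 0 passed in edgeR or DESeq2 after adjustment and 1 had an unadjusted p under 0.05, against 2.84% of all tested genes. That gene was Tef, a leucine zipper activator of the sites that Nfil3 represses, at 80.7 and 73.6 CPM in KO, against 118 and 121 CPM in WT (log2 fold change -0.63, SE 0.19, edgeR unadjusted p = 0.0258, adjusted p = 1.00). Its relative Dbp stood at 12.002 and 8.43 CPM in KO, against 14.4 and 12.2 CPM in WT. Tef, Dbp and Irf4 had both KO libraries under both WT libraries, against 11.6% of all tested genes, and Ikzf5 and Irf9 had them above, against 9.64%. Nfil3 itself overlapped. Tcf4, an E protein that Id2 can bind, overlapped between genotypes (log2 fold change -0.36, SE 0.42). Irf4 was low, at 1.40 and 1.03 CPM in KO and 1.60 and 1.76 CPM in WT.

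**Figure D4:**
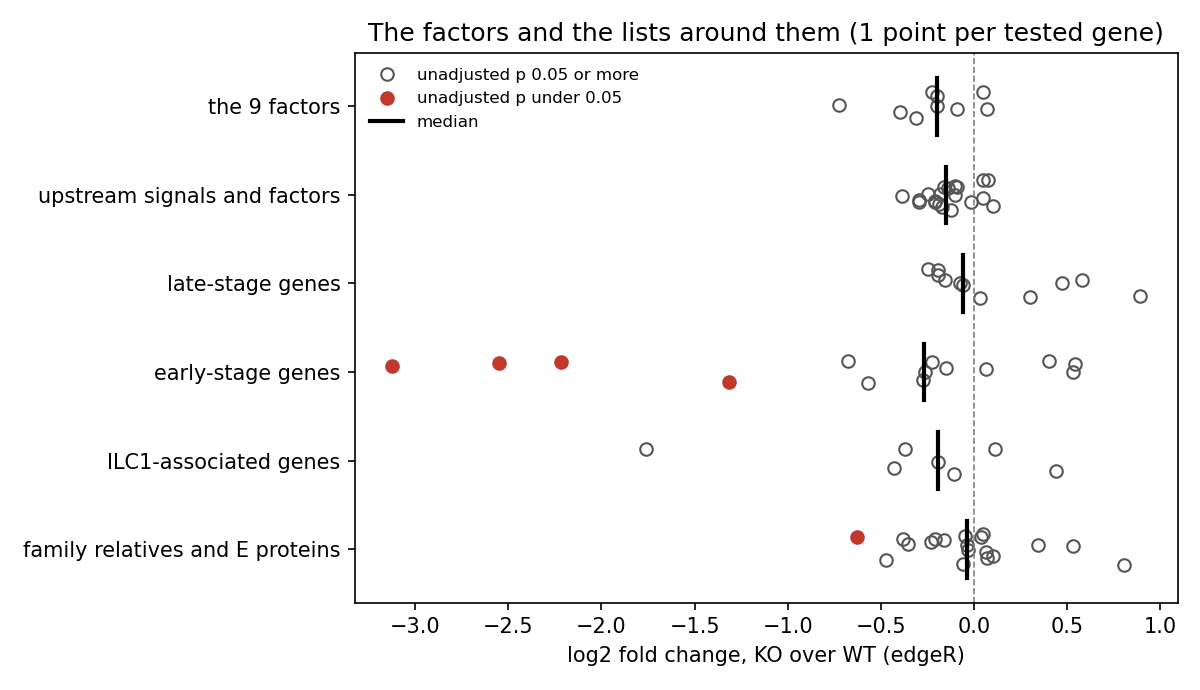
Log2 fold change of KO over WT for each tested gene of the 9 factors and of the 5 lists around them, with a bar at each median and filled points for an unadjusted edgeR p under 0.05. The factors lie between -0.73 and 0.07, and filled points appear among the early-stage genes (4) and the relatives (1).

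Genes with the profiles most like those of Eomes, Tbx21 and Ikzf2 over the 4 libraries were taken by the root mean square difference of centred log2 CPM among 6784 to 6785 genes with at least 20 CPM. For Eomes they were B4galt3 (0.019), Traf1 (0.023) and Cyb5r3 (0.026). For Tbx21 they were Ptpn11 (0.014), Lrpprc (0.015) and Usp21 (0.018). For Ikzf2 the nearest were farther away, led by the chemokine receptor gene Cxcr4 (0.058), at 34.2 and 32.2 CPM in KO and 37.3 and 75.2 CPM in WT, followed by Dhrs3 (0.11). With 4 libraries, many genes share such a profile.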

How the data were processed

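Per the submitters' processing notes, the authors counted reads per gene with featureCounts on mm10; versions, aligner and strand setting are not given in the sources used here. Deposited values are raw counts by Entrez number with a gene length in bases, per the file headers. Per the labels' protocols, TruSeq libraries were made from 200 ng of RNA.

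Symbols and positions came from RefSeq (GRCm38.p6); 95.0% of rows matched, and rows without a symbol held 1.23% of counts. Genes passing filterByExpr (minimum count 10) were tested with edgeR 4.0.16 in R 4.3.3 (quasi-likelihood, TMM, robust, genotype only), adjusted over all 12723 genes. Alternatives used DESeq2 1.42.0 and limma 3.58.1. Tests are two-sided, and 1 TMM-scaled CPM stands for 29.3 to 39.3 counts, so a count of 0 allows up to 0.0764 to 0.102 CPM (3 counts, counting error only).

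The factors and lists were chosen with earlier results of these data known. The naming rule took all 9 factors, Tcf7, up to 4 genes of each list by smallest p, and 3 similar profiles each for Eomes, Tbx21 and the factor with the smallest p. One of these profiles is not reported here. Some further genes and ratios were picked after their values were seen. No pair of libraries was a copy (chi-square per degree of freedom 34.6 to 266). The lowest values were between libraries of the same number, at 34.6 for the second KO and WT libraries and 64.0 for the first. Within a genotype it was 266 in KO and 137 in WT. All 4 libraries are from separate mice.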

Additional observations from a re-analysis of the deposited data

How the results depend on the processing

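None of the 9 factors passed at an adjusted p under 0.05 under any alternative run. Of 107 values of single factors under the alternatives, 95 kept their direction. The other 12 turned, all with a library left out. Over the fits without 1 library, the log2 fold change ran from -0.45 to 0.042 for Eomes, -0.20 to 0.30 for Tbx21, -0.86 to 0.10 for Zeb1, -1.03 to 0.41 for Zeb2, -0.74 to 0.040 for Prdm1, -0.28 to 0.37 for Irf8 and -0.29 to 0.11 for Nfil3. It kept its direction for Id2 (-0.23 to -0.14) and Ikzf2 (-1.12 to -0.17). Values above 0 for Eomes, Zeb1, Zeb2, Prdm1 and Nfil3 came without KO library 1 (Eomes, Zeb1, Zeb2, Nfil3) or WT library 2 (Zeb1, Zeb2, Prdm1, Nfil3). Those below 0 for Tbx21 and Irf8 came without KO library 2 or WT library 1. With a library left out, the lone sample is assumed to vary like the other group, and each genotype then holds unequal numbers of first and second libraries. The median over the factors ran from -0.45 to 0.10 in those fits and from -0.22 to -0.15 in the others. Over all genes, the count of calls was 35 with no filter on low counts, 71 with DESeq2, 0 to 53 with a library left out (53 without KO library 2, 33 without KO library 1) and 0 with voom, with other scalings, with at least 5 CPM in 2 libraries and with the gene length offset. The cause of these shifts was not tested.

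The replicate block, the library number as a term, gave 221 calls over all genes and 0 among the factors. Prdm1 (log2 fold change -0.39, edgeR unadjusted p = 0.00894, adjusted p = 0.194) and Zeb1 (-0.36, unadjusted p = 0.0441, adjusted p = 0.439) were then under 0.05 unadjusted. With the block, 1373 of 12723 tested genes were under 0.05 unadjusted, against 361 in the fit by genotype only. The deviations of libraries with the same number from their group means correlated at 0.73 over 12723 genes, but the labels state no pairing, and 2 pairs are too few to set one. With 2 libraries a group, the intervals allow sizeable differences in either direction for the factors, and a missed threshold is no sign of equal levels.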
